A study of Mus musculus with 6 samples.

Results

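The guanylate-binding protein (Gbp) genes were followed in mouse CD4+ effector T cells that differ in activity of the xenobiotic transporter Mdr1. The members are the 10 genes Gbp2 to Gbp11, taken by name from the 23366 genes of the count table. They were chosen by their counts in Mdr1+ against Mdr1- libraries, with results of that contrast in view. Their values in it are therefore given as a description and without p-values, and where their calls in the fit over all genes are counted, nothing is read from the counts. RNA was sequenced from T cells that had been transferred into Rag-deficient hosts, which lack T and B cells of their own, and recovered from the mesenteric lymph nodes 6 weeks later. Cells were sorted by the rhodamine dye Rh123, which Mdr1 pumps out. Mdr1+ cells retained little dye (Rh123lo) and Mdr1- cells retained much (Rh123hi). Each fraction has 3 libraries, the strain background is labelled FVB/N, and the host and the transfer are common to both fractions. Age, sex, the donor's genotype and any pooling of mice were not given in the sources used here, and p-values measure the spread between these libraries, which may be technical.

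Guanylate-binding proteins are large GTPases of the dynamin superfamily whose genes are among those most strongly induced by interferon gamma. In infected macrophages they coat bacteria and the vacuoles of intracellular parasites, break them open and expose their contents to inflammasome sensors. Interferon gamma acts through the receptor chains Ifngr1 and Ifngr2 and the kinases Jak1 and Jak2. Promoters of its target genes hold gamma-activated sites (GAS) and interferon-stimulated response elements (ISRE), and Irf1 and other factors of its family bind the ISRE. In the mouse the genes lie in clusters on chromosome 3 (Gbp2, Gbp3, Gbp5 and Gbp7 of those followed here) and chromosome 5 (Gbp4, Gbp6, Gbp8, Gbp9, Gbp10 and Gbp11).

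The RefSeq promoter table (build GRCm38.p6) had entries for 4 of the 10 genes, all on chromosome 3. The 250 bases before the transcript start are shown for these 4 because each holds an ISRE-type match, searched as GAAA, any 2 bases and GAAA on either strand. The match is in capitals, and in all 4 it reads TTTC, any 2 bases and TTTC on the strand shown. For Gbp3 the first of its 2 entries is shown, since the other held no match.
Gbp2, chr3:142620413-142620662, + strand: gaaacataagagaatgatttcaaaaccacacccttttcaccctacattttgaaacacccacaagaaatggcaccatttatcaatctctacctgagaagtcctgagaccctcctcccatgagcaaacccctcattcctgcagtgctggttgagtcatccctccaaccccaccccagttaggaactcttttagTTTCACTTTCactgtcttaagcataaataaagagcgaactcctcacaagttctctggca
Gbp3, chr3:142559794-142560043, + strand: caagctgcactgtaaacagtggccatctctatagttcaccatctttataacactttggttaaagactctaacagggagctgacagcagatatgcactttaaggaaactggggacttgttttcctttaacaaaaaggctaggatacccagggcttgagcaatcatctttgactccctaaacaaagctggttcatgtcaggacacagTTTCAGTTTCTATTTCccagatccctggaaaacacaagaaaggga
Gbp5, chr3:142496684-142496933, + strand: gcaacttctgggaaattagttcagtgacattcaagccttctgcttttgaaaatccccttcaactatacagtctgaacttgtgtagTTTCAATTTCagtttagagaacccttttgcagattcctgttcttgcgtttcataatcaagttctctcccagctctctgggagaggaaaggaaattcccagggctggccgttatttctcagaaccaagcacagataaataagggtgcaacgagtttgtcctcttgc
Gbp7, chr3:142530086-142530335, + strand: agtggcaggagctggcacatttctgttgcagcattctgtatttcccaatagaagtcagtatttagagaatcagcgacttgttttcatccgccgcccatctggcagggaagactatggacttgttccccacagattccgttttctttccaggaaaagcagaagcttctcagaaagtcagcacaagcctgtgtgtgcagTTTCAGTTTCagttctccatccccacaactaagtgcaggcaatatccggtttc

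The matches began 59 bases before the start in Gbp2, 45 and 39 bases before it in Gbp3, where they overlap, 165 bases before it in Gbp5 and 53 bases before it in Gbp7. A GAS-type match (TTCNNNGAA, its own reverse complement) was found in 2 of the 4, at 245 and 52 bases before the start in Gbp5 and at 106 and 87 bases before it in Gbp7. None of these GAS-type matches overlapped an ISRE-type match. Over all 32851 promoter entries of 250 bases before to 50 after a start, 3.44% held the ISRE letters and 8.3% the GAS letters. Among the other interferon-induced GTPase genes (a list of 16), 8 of the 10 with an entry held the ISRE letters and 6 the GAS letters. A match is a stretch of letters and was not tested for binding.

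**Figure D1:**
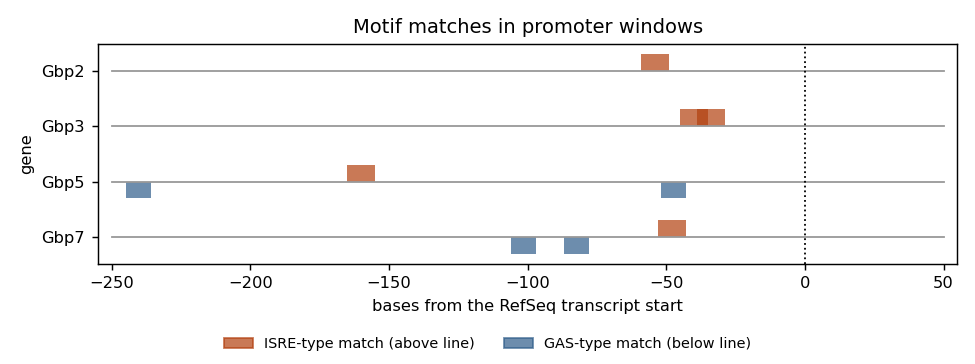
Positions of motif matches (x axis, bases from the RefSeq transcript start) in the promoter windows of the 4 Gbp genes with an entry (y axis); boxes above a line are ISRE-type and boxes below it GAS-type matches, and the dotted line is the start. In 3 of the 4 genes the ISRE-type match lies 30 to 59 bases before the start, and in Gbp5 it lies 165 to 156 bases before it.

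Libraries held 2220691 to 20771456 counts in genes, the Mdr1+ library of replicate 3 being the shallowest, and 3 counts correspond to 0.144 to 1.351 CPM. CPM are counts scaled to the library total, and levels below are CPM after TMM scaling. Abcb1a, the main gene of Mdr1, was at 177, 132 and 178 CPM in Mdr1+ cells and 72.9, 42.0 and 73.4 CPM in Mdr1- cells of replicates 1, 2 and 3, and it rose in Mdr1+ cells (log2 fold change 1.37 ± 0.25, SE, edgeR quasi-likelihood test, adjusted p = 0.024). That call was lost without Mdr1+ replicate 1 or 3, Mdr1- replicate 3, or replicate number 1 or 3 (adjusted p of 0.053 to 0.25), with log2 fold changes of 1.15 to 1.5 over all the sets left out. With the replicate number as a block the edgeR adjusted p of Abcb1a was 0.00023. In block fits without a replicate number it was at most 0.00035. Abcb1b, its second gene, was at 93.9 ± 49.2 CPM in Mdr1+ against 55.7 ± 27.0 CPM in Mdr1- cells (mean ± SD, n = 3 libraries each) and rose with the replicate number as a block (adjusted p = 0.0046) but not without it (adjusted p = 0.62), nor with it when replicate number 1 was left out (adjusted p = 0.061). T cell markers were present in every library, with Cd4 at 1095 to 1114 CPM in Mdr1+ and 1023 to 1124 CPM in Mdr1- cells, and the 11 T cell genes in the table had a median log2 fold change of 0.05 with none called by edgeR (0 at an unadjusted p under 0.05, and 0 by DESeq2).

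All 10 Gbp genes were detected in all 6 libraries and passed the filter on low counts, and all 10 were higher in the Mdr1+ library of each of the 3 replicate pairs. That pattern held for 28.2% of the 10897 tested genes. Summed over the family, Mdr1+ cells held 1612, 1187 and 1625 CPM and Mdr1- cells 1173, 689 and 1172 CPM in replicates 1, 2 and 3, which are ratios of 1.37, 1.72 and 1.39 within pairs. Each sum of the Mdr1+ cells is above each sum of the Mdr1- cells, by a small margin for the Mdr1+ library of replicate 2. In such bulk samples, more cells that express a gene and more RNA per cell cannot be told apart. The fitted fold changes ran between 1.14 for Gbp5 and 3.67 for Gbp11, with a median log2 fold change of 0.65 over the 10 genes and of 0.04 over all tested genes.

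**Figure D2:**
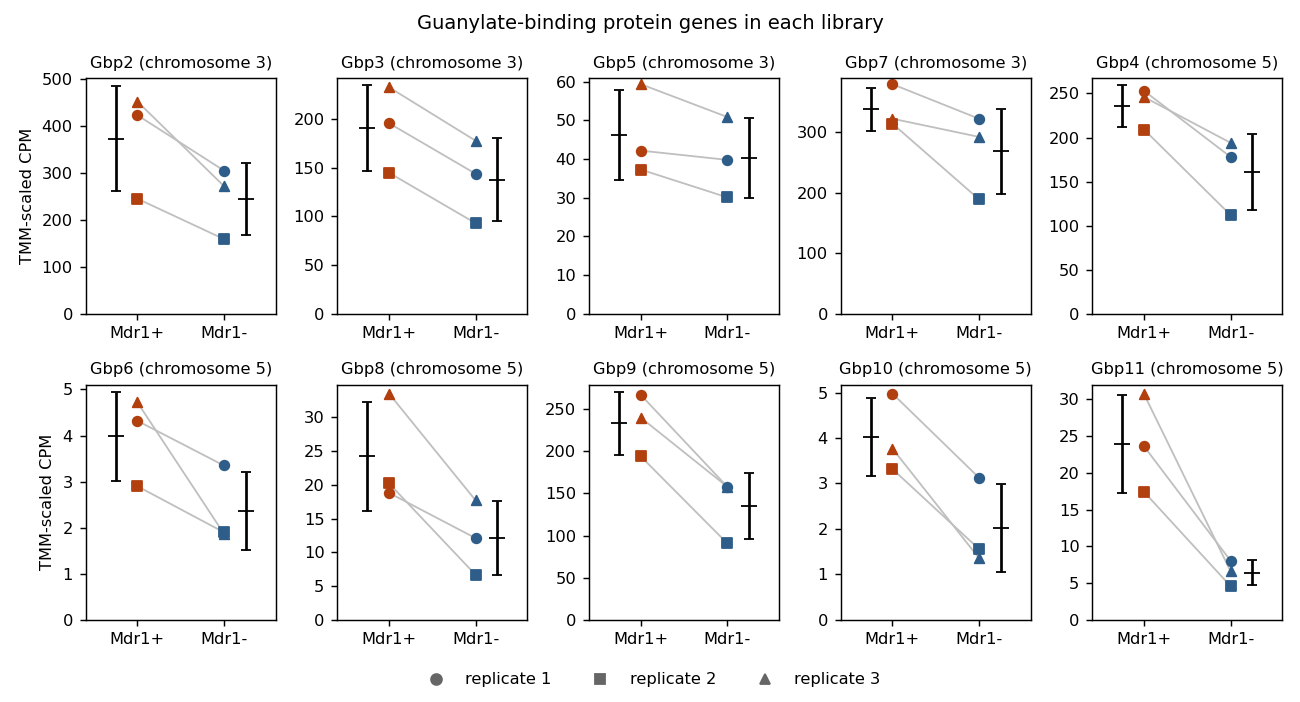
TMM-scaled CPM (y axes, linear from 0, one scale per gene) of the 10 Gbp genes in Mdr1+ (left) and Mdr1- (right) libraries; circles, squares and triangles are replicates 1, 2 and 3. Grey lines join same-numbered libraries and black bars give mean and SD. Every grey line falls towards the Mdr1- side, and Gbp11 has the widest gap, 17.4 to 30.7 CPM in Mdr1+ cells and 4.58 to 8.04 CPM in Mdr1- cells.

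Gbp11 differed most. It is annotated as a transcribed pseudogene by RefSeq and as a polymorphic pseudogene, coding in some strains, by GENCODE M21, and its reading frame in FVB/N mice was not examined. It had 142, 372 and 65 counts in Mdr1+ and 72, 53 and 39 counts in Mdr1- libraries, or 23.6, 17.4 and 30.7 CPM in Mdr1+ and 8.04, 4.58 and 6.62 CPM in Mdr1- cells. The groups were well apart, since the lowest Mdr1+ library had more than the highest Mdr1- library by a wide margin. The log2 fold change was 1.88 ± 0.34 (SE), and the ratios within pairs were 2.94, 3.79 and 4.63. Gbp11 supplied 1.46% to 1.89% of the family's CPM in Mdr1+ cells and 0.565% to 0.685% in Mdr1- cells.

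Gbp9 and Gbp4 are the most abundant genes of the chromosome 5 cluster. Gbp9 was at 267, 194 and 240 CPM in Mdr1+ cells and 158, 90.8 and 158 CPM in Mdr1- cells, a log2 fold change of 0.78 ± 0.24 (SE). Gbp4 was at 253, 209 and 246 CPM in Mdr1+ cells and 178, 112 and 194 CPM in Mdr1- cells, a log2 fold change of 0.55 ± 0.22. For both genes all Mdr1+ libraries were above all Mdr1- libraries, narrowly so for Gbp4, where the lowest Mdr1+ and the highest Mdr1- library were replicates 2 and 3. Gbp8 was lower in level and more spread, with 18.8, 20.2 and 33.5 CPM in Mdr1+ cells and 12.1, 6.66 and 17.7 CPM in Mdr1- cells. Its groups also did not overlap, and its ratio was largest in pair 2 (3.04) and smallest in pair 1 (1.56), with a log2 fold change of 0.98 ± 0.39 (SE).

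Gbp6 and Gbp10, which with Gbp7 have been reported to restrict intracellular bacteria in mouse macrophages, rested on few reads. Gbp10 had 30, 71 and 8 counts in Mdr1+ and 28, 18 and 8 counts in Mdr1- libraries, and Gbp6 had 26, 62 and 10 counts in Mdr1+ and 30, 22 and 11 counts in Mdr1- libraries. As CPM, Gbp10 was at 4.03 ± 0.861 in Mdr1+ and 2.01 ± 0.968 in Mdr1- cells and Gbp6 at 3.98 ± 0.956 in Mdr1+ and 2.37 ± 0.845 in Mdr1- cells (mean ± SD, n = 3 libraries each). Their log2 fold changes of 0.98 ± 0.53 and 0.69 ± 0.50 (SE) are the least precise of the family. These genes are near copies of each other in the reference: of all stretches of 100 bases in the longest coding transcript of Gbp10, 56.1% also occur in a Gbp6 transcript, and 44.2% of those of Gbp6 occur in Gbp10. For the other 8 genes at most 5.1% of such stretches, in Gbp11, occur in another Gbp gene. Of stretches of 50 bases more are shared, namely 21.2% in Gbp8, 19.2% in Gbp11, 12.8% in Gbp4 and 9.6% in Gbp9. In Gbp2, Gbp3, Gbp5 and Gbp7 it is at most 4.8%. In replicates 1 and 2, reads without a unique position were set aside and not counted in genes. For replicate 3 this class was not given. Reads that match both Gbp6 and Gbp10 may thus be missing, so the counts of these genes are uncertain and may be too low. In GENCODE M21 the exons of Gbp4, Gbp8 and Gbp9 also overlap each other by 60 or 61 bases.

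The chromosome 3 genes differed less. Gbp2, a prenylated member that in mouse macrophages acts upstream of the Aim2 inflammasome, was at 423, 245 and 452 CPM in Mdr1+ cells and 305, 159 and 272 CPM in Mdr1- cells. Its groups overlapped, with replicate 2 low in both fractions, and within pairs the ratios were alike at 1.39, 1.54 and 1.66. Gbp3 was at 196, 145 and 233 CPM in Mdr1+ cells and 144, 93.1 and 178 CPM in Mdr1- cells, again with replicate 2 lowest in both. Gbp7 was at 379, 314 and 322 CPM in Mdr1+ cells and 322, 189 and 292 CPM in Mdr1- cells, and its ratio of 1.66 in pair 2 stood above those of 1.18 and 1.10 in pairs 1 and 3. Gbp5, which has been linked to the Nlrp3 inflammasome in mouse macrophages, was nearest to equal at 42.2, 37.3 and 59.4 CPM in Mdr1+ cells and 39.8, 30.1 and 50.9 CPM in Mdr1- cells. The log2 fold changes were 0.60 ± 0.30 for Gbp2, 0.46 ± 0.26 for Gbp3, 0.34 ± 0.22 for Gbp7 and 0.19 ± 0.26 for Gbp5 (SE). The groups overlapped for all 4 genes, and without Mdr1+ replicate 3 the value for Gbp5 was -0.02.

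**Figure D3:**
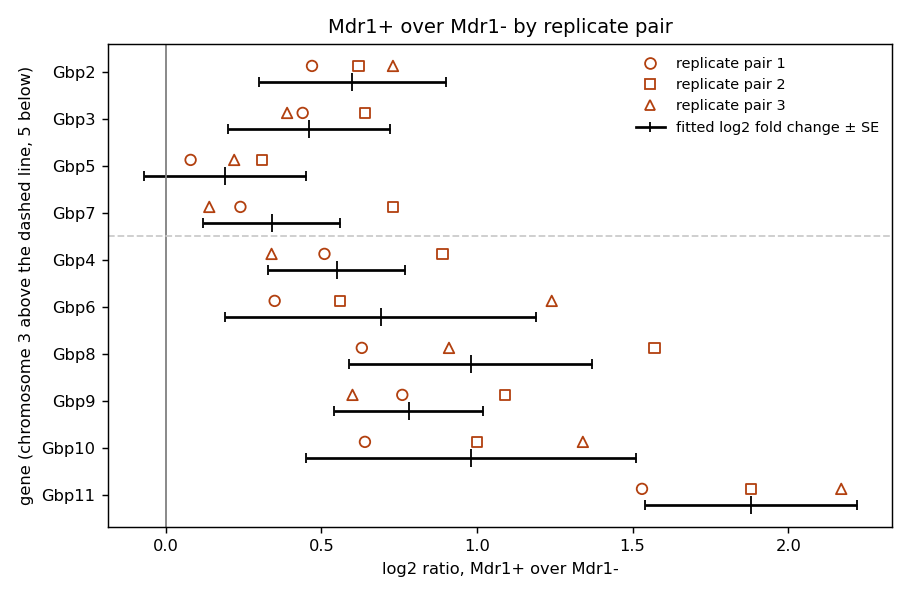
Log2 of the Mdr1+ to Mdr1- ratio (x axis) for the 10 Gbp genes (y axis, chromosome 3 above the dashed line and chromosome 5 below it); circles, squares and triangles are replicate pairs 1, 2 and 3, and black bars are the fitted log2 fold change ± SE. Every ratio lies above 0, from 0.08 for Gbp5 in pair 1 to 2.17 for Gbp11 in pair 3.

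The 4 chromosome 3 genes had log2 fold changes of 0.19 to 0.60 with a median of 0.40, and the 6 chromosome 5 genes 0.55 to 1.88 with a median of 0.88. The Mdr1+ and Mdr1- libraries did not overlap for 5 of the 10 genes (Gbp4, Gbp8, Gbp9, Gbp10 and Gbp11), all on chromosome 5, and 8.71% of all tested genes had no overlap with Mdr1+ higher. Chromosome 5 genes supplied 34.3% to 37.6% of the family's CPM in Mdr1+ libraries and 30.9% to 32.4% in Mdr1- libraries. In edgeR's quasi-likelihood test across all genes, 1 of the 10, Gbp11, was among those called higher, as were 0.275% of all tested genes, and none was among the 1.95% called lower. With the replicate number as a block the called genes included 6 of the 10 (Gbp2, Gbp3, Gbp4, Gbp8, Gbp9 and Gbp11), with 5.81% of all tested genes called higher and 6.57% lower. Because the choice of genes used this contrast, nothing is read from these counts. Fitted with the block, the log2 fold changes moved by little, to 0.61 ± 0.09 for Gbp2, 0.82 ± 0.11 for Gbp9 and 1.06 ± 0.25 for Gbp8, and their standard errors were smaller. Leaving out Mdr1+ replicate 1 or 3, Mdr1- replicate 2 or 3, or any replicate number from the fit without a block left 0 of the 10 called, where 0% to 0.133% of all tested genes were called higher. With the block, 7 of the 10 were called without replicate number 1 (3.93% of all tested genes called higher), 4 without number 2 (2.42%) and 7 without number 3 (10.1%).

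Levels of the family also varied with the replicate number. Replicate 2 was the lowest of the 3 Mdr1+ libraries for 9 of the 10 genes (Gbp8 was the exception) and the lowest of the 3 Mdr1- libraries for 8 (Gbp6 and Gbp10 were the exceptions), so that 7 genes were lowest there in both fractions. Of all tested genes 23.9% were lowest in replicate 2 in both fractions. The summed family level of the Mdr1+ library of replicate 2, 1187 CPM, was close to that of the Mdr1- libraries of replicates 1 and 3.

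Between genes, levels are comparable only per length, here CPM per kb of the longest coding transcript in GENCODE M21. Gbp2 was highest at 148 ± 44.7 in Mdr1+ and 97.5 ± 30.5 in Mdr1- cells (CPM per kb, SD of 3 libraries), and it led the other 9 genes in each of the 6 libraries. Next came Gbp3 (71.3 ± 16.4 in Mdr1+ and 51.6 ± 15.9 in Mdr1- cells), Gbp7 (60.3 ± 6.33 in Mdr1+ and 47.7 ± 12.4 in Mdr1- cells), Gbp9 (53.3 ± 8.49 in Mdr1+ and 30.9 ± 8.84 in Mdr1- cells) and Gbp4 (52.0 ± 5.22 in Mdr1+ and 35.6 ± 9.55 in Mdr1- cells). Each of these overlapped with its neighbour in that order. The order is that of the Mdr1+ means, and in each Mdr1- library Gbp4 was above Gbp9. Gbp5 (15.2 ± 3.8 in Mdr1+ and 13.2 ± 3.41 in Mdr1- cells) stood below them in every library. Gbp8 (9.83 ± 3.3 in Mdr1+ and 4.93 ± 2.24 in Mdr1- cells) overlapped with Gbp5 in Mdr1+ cells only, and with Gbp11 (8.87 ± 2.47 in Mdr1+ and 2.38 ± 0.645 in Mdr1- cells) in both fractions. Gbp6 and Gbp10 were lowest, at 1.53 and 1.14 CPM per kb in Mdr1+ and 0.911 and 0.571 CPM per kb in Mdr1- cells. Their levels may be too low, since reads that match both genes may have been left out. With the merged exons of all transcripts as the length, Gbp5 came to 6.98, Gbp8 to 7.02 and Gbp11 to 8.87 CPM per kb in Mdr1+ cells. Gbp3 then came to 58.6 and Gbp7 to 60.3 CPM per kb in Mdr1+ cells, and Gbp6 to 0.668 and Gbp10 to 1.04. In Mdr1- cells Gbp9 then came to 26.2 and Gbp4 to 21.5 CPM per kb, the reverse of their order above. The order within each of these groups of genes therefore depends on the transcript model. Gbp2, Gbp3, Gbp4, Gbp7 and Gbp9 together supplied 91.9% to 94.2% of the family's CPM in Mdr1+ and 93.3% to 94.3% in Mdr1- libraries.

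**Figure D4:**
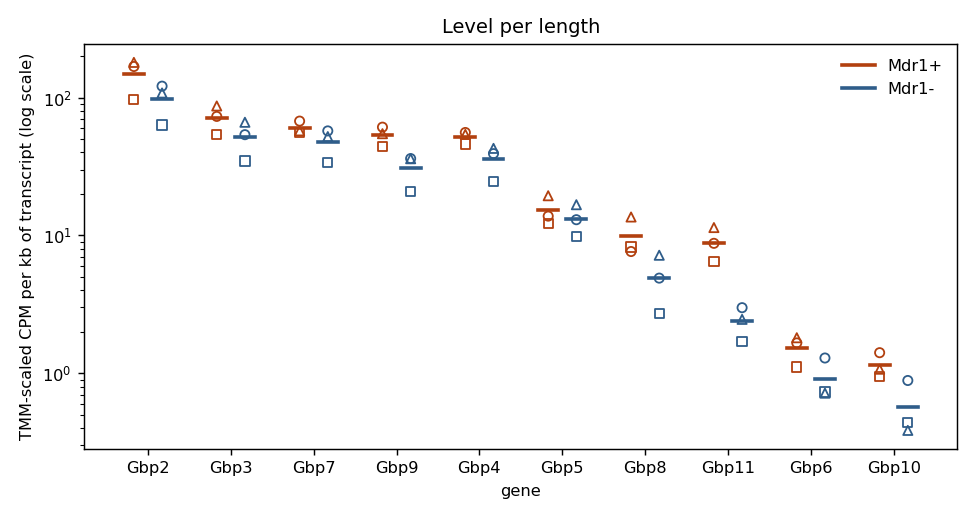
TMM-scaled CPM per kb of the longest coding transcript (y axis, log scale) of the 10 Gbp genes (x axis, ordered by the Mdr1+ mean) in Mdr1+ (left of each pair) and Mdr1- libraries (right); circles, squares and triangles are replicates 1, 2 and 3 and bars are means of 3. Gbp2 is highest, at 148 CPM per kb in Mdr1+ and 97.5 CPM per kb in Mdr1- cells, and Gbp6 and Gbp10 are lowest.

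The table has 1 further row named for the family, Gbp1, which RefSeq lists as an older name of Gbp2b and which is not among the 10. It was at 4.54 ± 2.27 CPM in Mdr1+ against 3.19 ± 1.61 CPM in Mdr1- cells (mean ± SD, n = 3 libraries each). Its ratios within pairs were 0.856, 1.96 and 1.89, so unlike the 10 it was lower in the Mdr1+ library in pair 1.

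Genes upstream of the family were tested in the same fit. Of 16 tested genes of interferon gamma signalling, 0 passed edgeR's test without the block (4 higher at an unadjusted p under 0.05, and 1, Socs3, by DESeq2), and 6 rose in Mdr1+ cells with it (Ifngr1, Socs3, Irf1, Nlrc5, Irf9 and Jak1). Their list had a median log2 fold change of 0.36. Ifngr1, which encodes the ligand-binding chain of the interferon gamma receptor, was at 1270, 707 and 1031 CPM in Mdr1+ cells and 706, 408 and 636 CPM in Mdr1- cells. The lowest Mdr1+ library lay just above the highest Mdr1- library, the ratios within pairs were 1.80, 1.73 and 1.62, and the log2 fold change was 0.78 ± 0.27 (SE, edgeR adjusted p = 0.27, and 0.00046 under the block). Ifngr2, the other chain, was low and did not differ beyond its spread, at 23.8 ± 12.0 CPM in Mdr1+ against 24.3 ± 11.8 CPM in Mdr1- cells (mean ± SD of 3 libraries). Its edgeR adjusted p was 0.96, and 0.89 under the block.

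The cytokine gene itself, Ifng, was at 248 ± 93.8 CPM in Mdr1+ against 222 ± 73.7 CPM in Mdr1- cells (mean ± SD, n = 3 libraries each) and passed in neither edgeR fit. Its log2 fold change was 0.17 ± 0.31 (SE, edgeR adjusted p = 0.89, and 0.47 with the block). Irf1, an activator of Gbp genes, was at 847 ± 128 CPM in Mdr1+ against 631 ± 69.5 CPM in Mdr1- cells and rose with the block. Its log2 fold change was 0.42 ± 0.18 without the block (SE, edgeR adjusted p = 0.41) and 0.42 ± 0.09 with it (edgeR adjusted p = 0.015). Nlrc5, an activator of MHC class I genes, was at 926 ± 101 CPM in Mdr1+ against 701 ± 34.2 CPM in Mdr1- cells and rose with the block (edgeR adjusted p = 0.38 without it and 0.019 with it). Of the feedback inhibitors, Socs3 was at 643 ± 35.4 CPM in Mdr1+ against 387 ± 38.8 CPM in Mdr1- cells with no overlap (log2 fold change 0.73 ± 0.16, edgeR adjusted p = 0.059, and 0.0021 with the block). Socs1 was at 86.1 ± 31.2 CPM in Mdr1+ against 56.4 ± 7.63 CPM in Mdr1- cells and passed in neither fit (edgeR adjusted p = 0.45, and 0.072 under the block). In block fits that left out a replicate number, Ifngr1 and Socs3 passed each time. The calls of Irf1, Nlrc5, Irf9 and Jak1 were lost without number 2 (edgeR adjusted p of 0.055 to 0.12), and those of Irf9 and Jak1 also without number 1 (0.069 for Irf9 and 0.11 for Jak1).

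Products of some other interferon-induced GTPase genes act with the Gbp proteins at parasite vacuoles. Of 13 tested genes of the whole list of such GTPases, 12 had a log2 fold change above 0, with a median of 0.35. Of these 13, 0 passed edgeR's test without the block (2 higher at an unadjusted p under 0.05, and 0 by DESeq2). With the block Igtp (227 ± 34.2 CPM in Mdr1+ against 181 ± 32.6 CPM in Mdr1- cells, mean ± SD of 3 libraries, edgeR adjusted p = 0.039) and Iigp1 (66.7 ± 27.3 CPM in Mdr1+ against 47.4 ± 20.1 CPM in Mdr1- cells, edgeR adjusted p = 0.030) rose. Other interferon gamma targets had a median log2 fold change of 0.14 over 17 tested genes. Without the block 0 passed in edgeR (0 at an unadjusted p under 0.05, and 0 by DESeq2). H2-K1, an MHC class I gene, and Cd274, which encodes PD-L1, rose with it. In the block fit the log2 fold change was 0.31 ± 0.08 for H2-K1 (SE, edgeR adjusted p = 0.035). That of Cd274 was 0.45 ± 0.12 (edgeR adjusted p = 0.041). The block calls of Igtp, Iigp1, H2-K1 and Cd274 were lost without replicate number 2 (edgeR adjusted p of 0.10 to 0.18), and those of Igtp and Iigp1 also without number 1 (0.16 for Igtp and 0.21 for Iigp1). The immunoproteasome genes Psmb8, Psmb9 and Psmb10, chosen after their values were seen, had log2 fold changes of -0.09, -0.33 and -0.02.

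The type I interferon list holds genes that respond mainly to it and also its receptor genes. Of 18 tested, 1 rose without the block and 3 with it, and the list's median was 0.33. Irf7, a regulator of interferon genes, was at 147, 181 and 173 CPM in Mdr1+ cells and 93.9, 89.5 and 80.8 CPM in Mdr1- cells. The fitted log2 fold change was 0.92 ± 0.16 (SE, edgeR adjusted p = 0.022). That call was lost without any 1 of 5 libraries, the exception being Mdr1+ replicate 1, and without any replicate number (adjusted p of 0.06 to 0.31), while the log2 fold change stayed between 0.81 and 0.99. With the block the edgeR adjusted p of Irf7 was 0.0015, and it was at most 0.0015 in block fits without a replicate number. Ifih1, which encodes the RNA sensor MDA5, and Rtp4 rose with the block. In that fit the log2 fold change was 0.55 ± 0.13 for Ifih1 (SE, edgeR adjusted p = 0.031). That of Rtp4 was 1.29 ± 0.32 (edgeR adjusted p = 0.032). Both calls were lost in block fits without replicate number 1 or 2 (edgeR adjusted p of 0.06 to 0.29). The list's median within pairs was 0.36, 0.69 and -0.21, and that of the Gbp genes, which were chosen with this contrast in view, was 0.49, 0.81 and 0.67. Pair 3 includes the shallowest library, in which several genes of the type I list had few or no counts.

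**Figure D5:**
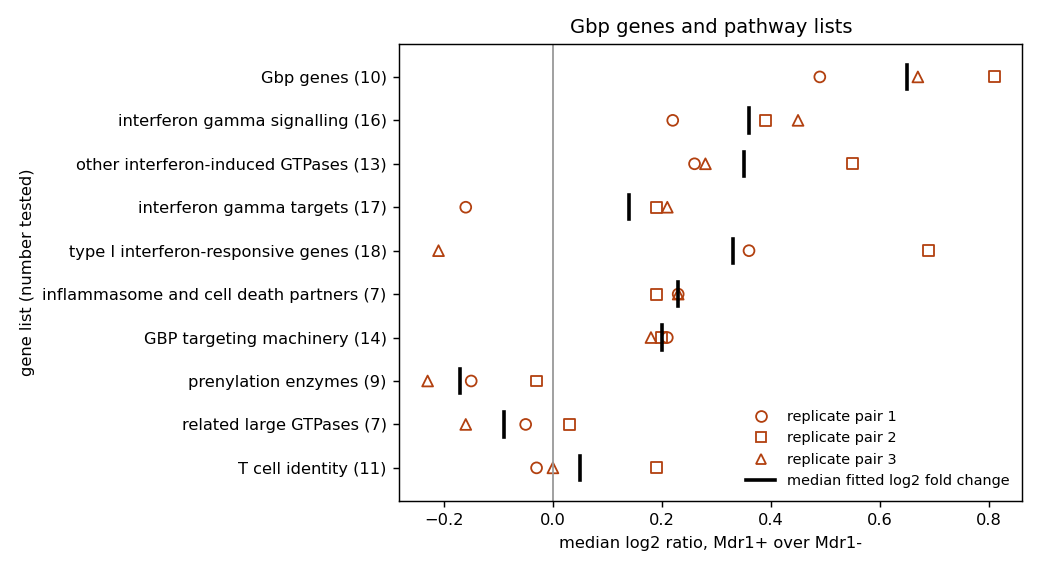
Median log2 of the Mdr1+ to Mdr1- ratio (x axis) over the tested genes of each list (y axis, number tested in parentheses); circles, squares and triangles are replicate pairs 1, 2 and 3 and black bars the median fitted log2 fold change. The Gbp genes, which were chosen with this contrast in view, have a fitted median of 0.65 and pair medians of 0.49 to 0.81. The lists chosen around them have fitted medians between -0.17 and 0.36 and pair medians between -0.23 and 0.69.

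Genes whose products act with Gbp proteins in macrophages were also measured in these T cells. Among 7 tested genes of inflammasomes and cell death, Pycard, the adaptor that links sensors to caspase-1, fell in Mdr1+ cells, with 48.7, 62.8 and 46.2 CPM there and 115, 162 and 88.6 CPM in Mdr1- cells. The fitted log2 fold change was -1.21 ± 0.25 (SE, edgeR adjusted p = 0.041). Its call was lost without any 1 library and without any replicate number in the fit without a block (adjusted p of 0.054 to 0.24). In the block fit its edgeR adjusted p was 0.00049. The DNA sensor gene Aim2 (71.2 ± 13.4 CPM in Mdr1+ against 46.2 ± 3.98 CPM in Mdr1- cells, mean ± SD of 3 libraries) and the pore-forming protein gene Gsdmd (99.3 ± 10.6 CPM in Mdr1+ against 74.7 ± 5.13 CPM in Mdr1- cells) rose with the block and not without it (edgeR adjusted p = 0.025 for Aim2 and 0.038 for Gsdmd). Nlrp3 was too low to test, with 3.4 CPM in the Mdr1- library of replicate 3 and at most 0.472 CPM in the others. Of 14 genes listed for the targeting of Gbp proteins to vacuoles, among them the ubiquitin-like machinery, 0 passed in edgeR without the block (2 higher at an unadjusted p under 0.05, and 0 by DESeq2). Atg16l1, part of the complex that conjugates ubiquitin-like proteins to membrane lipid, rose with the block. Its log2 fold change in that fit was 0.42 ± 0.11 (SE, edgeR adjusted p = 0.041). The block calls of Gsdmd and Atg16l1 were lost without replicate number 1 or 2 (edgeR adjusted p of 0.083 to 0.26), and that of Aim2 without number 2 (0.13). Of 9 genes of prenylation, by which some Gbp proteins are anchored in membranes, and of 7 related large GTPases (atlastins, dynamins and mitofusins), none passed in edgeR in either fit (0 at an unadjusted p under 0.05 without the block, and 0 by DESeq2), with a median of -0.17 for prenylation and of -0.09 for the related GTPases.

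The genes beside the Gbp clusters gave values of their own. The 12 nearest tested neighbours (3 on each side of each cluster, by RefSeq gene order) had log2 fold changes of -0.68 to 0.66, and the smallest edgeR adjusted p among them without the block was 0.097. Next to the chromosome 5 cluster lies Abcg3, a gene of the ABC transporter family like those of Mdr1, which was at 12.3, 13.0 and 2.83 CPM in Mdr1+ cells and 7.14, 5.79 and 5.77 CPM in Mdr1- cells and passed in neither fit (edgeR adjusted p = 0.67, and 0.41 with the block). Tspan5, a tetraspanin gene beyond the chromosome 3 cluster, was at 45.0, 43.1 and 50.9 CPM in Mdr1+ cells and 75.0, 68.0 and 79.1 CPM in Mdr1- cells. It fell with the block (log2 fold change -0.68 ± 0.12 in that fit, SE, edgeR adjusted p = 0.0078) and is the 1 neighbour that passed.

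By the mean centred log2 CPM profile of the 10 genes over the 6 libraries, 8 genes were nearest of the 9725 others whose mean log2 CPM reached 2. They were Mgat4a, Cdc42ep3, Ppia, Il4ra, Parp12, Gramd3, Cblb and Vamp1. Their root-mean-square differences were 0.0662 to 0.114 log2 units, against a median of 0.545 over all genes compared. The Gbp genes themselves lay at 0.102 (Gbp9) to 0.555 (Gbp11) from their own mean, so Gbp11 had the least typical profile of the family. Cdc42ep3, an effector of the GTPase Cdc42, was at 55.4 ± 6.0 CPM in Mdr1+ against 34.9 ± 9.33 CPM in Mdr1- cells, and Il4ra, the interleukin 4 receptor gene, at 534 ± 131 CPM in Mdr1+ against 332 ± 71.2 CPM in Mdr1- cells (mean ± SD, n = 3 libraries each). As likeness was measured on the same 6 libraries, it carries no test.

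Among tested genes outside the family, 303 had an ISRE-type match in a promoter entry. Their median log2 fold change was 0.08, 59.4% were above 0, and with the block 25 of them (8.25%) were called higher. Over all 8077 tested genes with an entry the median was 0.04, 54.4% were above 0 and 461 (5.71%) were called higher. These shares carry no test.

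Markers of other cells also differed between libraries. The 10 macrophage and monocyte markers summed to 11.9 to 24.5 CPM in Mdr1+ libraries and 10.5 to 102 CPM in Mdr1- libraries. The high value was the Mdr1- library of replicate 3, where Il1b had 36.7 CPM and Cd14 23.6 CPM. Csf1r was at 0 in all 3 Mdr1+ libraries, and Lyz2 fell with the block (edgeR adjusted p = 0.046, and 0.19 without replicate number 1). Without that Mdr1- library the log2 fold changes of the 10 Gbp genes were 0.39 (Gbp5) to 1.90 (Gbp11). They were then smaller for Gbp6 (0.56) and Gbp10 (0.78) and larger for the other 8, among them Gbp8 (1.34) and Gbp9 (0.91). The 10 dendritic cell markers summed to 186 to 201 CPM in Mdr1+ and 178 to 224 CPM in Mdr1- libraries. Most of that sum was Ccr7, at 138 to 176 CPM in Mdr1+ and 93.6 to 161 CPM in Mdr1- libraries. Cd74 and H2-Aa fell in Mdr1+ cells with the block (edgeR adjusted p = 0.0043 for Cd74 and 0.019 for H2-Aa, the second lost without replicate number 2 at 0.18). The 8 B cell markers summed to 11.5 to 22.8 CPM in Mdr1+ and 7.26 to 11.3 CPM in Mdr1- libraries, of which Cd22 rose with the block (edgeR adjusted p = 0.037, lost without replicate number 1 at 0.20 and without number 2 at 0.56). The 7 NK cell markers summed to 96.2 to 182 CPM in Mdr1+ and 33.6 to 53.1 CPM in Mdr1- libraries, most of it from Eomes, which effector T cells also make and which rose (edgeR adjusted p = 0.019, lost without Mdr1- replicate 3 or any replicate number at 0.10 to 0.17). With the block the edgeR adjusted p of Eomes was 0.00033, and it was at most 0.00048 in block fits without a replicate number. The other 2 tested NK markers also did not overlap between groups. Klrb1c was at 20.6, 15.0 and 20.7 CPM in Mdr1+ and 14.6, 8.13 and 9.0 CPM in Mdr1- cells, and Klre1 at 1.66, 1.26 and 6.60 CPM in Mdr1+ and 0.558, 0.259 and 0 CPM in Mdr1- cells. They passed in neither edgeR fit (adjusted p = 0.35 for Klrb1c and 0.23 for Klre1 without the block), but all 3 NK markers were higher at an unadjusted p under 0.05 and DESeq2 called 2. Klra8 and Klra4 were at 0 in all 6 libraries. The 2 CD8 T cell markers summed to at most 1.5 CPM in Mdr1+ and 2.21 CPM in Mdr1- libraries, and 6 neutrophil markers to at most 5.66 CPM in Mdr1+ and 2.55 CPM in Mdr1- libraries. The 11 endothelial, stromal and epithelial markers summed to 120 to 202 CPM in Mdr1+ and 131 to 145 CPM in Mdr1- libraries. Most of that sum was Pecam1, at 115 to 190 CPM in Mdr1+ and 115 to 128 CPM in Mdr1- libraries. Acta2 fell (0, 0.28 and 0 CPM in Mdr1+ and 4.35, 6.40 and 4.08 CPM in Mdr1- cells, edgeR adjusted p = 0.018). The Acta2 call was lost without Mdr1+ replicate 1, Mdr1- replicate 2 or 3, or any replicate number (edgeR adjusted p of 0.053 to 0.21). With the block its edgeR adjusted p was 0.0046, and it was at most 0.027 in block fits without a replicate number. Of 14 cell cycle genes 13 fell in Mdr1+ cells in edgeR without the block, with a median log2 fold change of -2.68. Leaving out replicate number 2 left 8 of them called and leaving out number 3 left 0, when no gene of the table was called. With the block all 14 were called lower in edgeR. Calls lost in block fits without a replicate number included Ccnb1 without number 2 (edgeR adjusted p = 0.11) and Plk1 without number 3 (0.057). The part of other cells or of the cell cycle in the Gbp values was not tested.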

How the data were processed

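RNA of 6 sorted T cell libraries was made into stranded libraries from total RNA, as the labels state. The authors deposited raw counts per gene. The submitters' processing notes list TopHat, HTSeq, DESeq2 and build mm9. Versions, annotation and strand setting were not given in the sources used here. HTSeq classes for reads without a unique position held 67.0% to 73.2%, and reads outside features 13.2% to 19.7%, of the libraries of replicates 1 and 2, and were left out. The replicate 3 values are deposited in a gene order that ignores case. They were assigned to names sorted that way. This gave a Spearman correlation of 0.926 to 0.936 (Mdr1+) and 0.958 to 0.962 (Mdr1-) with the libraries of replicates 1 and 2 of both fractions. As deposited it was 0.424 to 0.434 (Mdr1+) and 0.447 to 0.46 (Mdr1-).

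Counts were fitted with edgeR 4.0.16 (limma 3.58.1, R 4.3.3): filterByExpr, TMM scaling, the quasi-likelihood test and Benjamini-Hochberg adjustment over 10897 genes, with a threshold of 0.05. DESeq2 1.42.0, other scalings, no filter, libraries left out and the replicate number as a block were alternatives. Same-numbered libraries deviated together (correlations of 0.41, 0.57 and 0.21), and the numbers were therefore used as pairs, which rests on shared numbers and these data. Pair ratios use a prior count of 2. On simulated counts for 10897 genes, 96% of 200 genes changed 4-fold were recovered and 4% of calls were false. The simulation had the same spread setting for all genes and no effect of the replicate number, and genes of low level were not changed. Its rates therefore do not carry over to the real libraries or to smaller changes. RefSeq promoters (GRCm38.p6) and GENCODE M21 transcripts gave sequences and lengths; the mice are FVB/N, another strain than the reference. A planned comparison of proteins was not made here.

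The Gbp genes and all lists were chosen with earlier results of these data known. By the naming rule the other genes are Ifng, Ifngr1, Ifngr2, Irf1, Socs1, Abcb1a, Abcb1b, other rows named Gbp, called list members (up to 6 a list by size of change), the neighbours of the clusters and the 8 nearest profiles. Named outside it, after their values were seen, are Psmb8, Psmb9, Psmb10, Nlrp3, Cd4, Il1b, Cd14, Csf1r, Ccr7, Pecam1, Klrb1c, Klre1, Klra8 and Klra4. Some genes of these lists are not reported here.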

Additional observations from a re-analysis of the deposited data

How the results depend on the processing

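The log2 fold changes of the Gbp genes kept their sign under 17 alternatives, except that Gbp5 was -0.02 without Mdr1+ replicate 3, and Gbp11 ranged from 1.67 to 2.07. The number of genes called higher was 30 and lower 212, and 1 Gbp gene was called. Without a filter on low counts 52 genes were higher. DESeq2 called 102 higher and 378 lower. With the replicate number as a block 633 were higher, 716 lower and 6 Gbp genes were called. Block fits without replicate 1, 2 or 3, chosen after seeing the data, called 436, 259 and 1131 higher, 694, 392 and 1347 lower, and 7, 4 and 7 Gbp genes. Leaving out a library or a replicate number gave 0 to 15 higher, 0 to 196 lower and 0 to 1 Gbp genes. The count of 0 came without replicate 3, where 904 genes had an unadjusted p under 0.05 in edgeR. With replicate 3 as deposited, edgeR called 0 higher, 0 lower and 0 Gbp genes (108 genes at an unadjusted p under 0.05), and Gbp6 and Gbp8 came to -0.01 and -0.05. In that setting most replicate 3 values stand under another gene's name. Of the 23366 gene rows, 19002 have another place in the order that ignores case. Over the window before the start only, 2.98% of promoter entries held the ISRE letters and 7.02% the GAS letters. Depth limits Gbp6 and Gbp10 most, with 8 to 11 counts in replicate 3.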
